A study of Mus musculus with 21 samples.

Results

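Hif1a, Epas1, Egln3, Vegfa, Adm, Bnip3, Slc2a1, Pdk1 and Ldha, genes of the response to low oxygen and of glucose use, were followed in the midbrain of MPTP treated mice given irisin. They were taken by gene symbol, and all 9 were listed once in each of the deposited tables, which share 33622 genes. RNA-seq was done on 21 male C57BL/6 mice, labelled as 6 weeks old, in 7 groups of 3. MPTP is a neurotoxin whose metabolite blocks mitochondrial complex I in dopaminergic neurons, and irisin is a hormone cleaved from the muscle protein FNDC5.

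In the pre-treatment experiment, control mice had 10 days of ddH2O. MPTP treated mice had 5 days of ddH2O and then 5 days of MPTP at 30 mg per kg and day. Mice with irisin before MPTP had 5 days of irisin at 200 µg per kg and day and then the same 5 days of MPTP. In the delayed treatment experiment, control mice again had ddH2O only, while a group with irisin alone had 5 days of ddH2O and then 5 days of irisin. MPTP treated mice had 5 days of MPTP and then 5 days of ddH2O, and mice with MPTP then irisin had 5 days of each. MPTP alone was therefore read at the end of the toxin course in the first experiment and 5 days after it in the second. No group had irisin alone before ddH2O, and no group had an altered gene.

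Cells sense oxygen through prolyl hydroxylases, which mark the alpha subunits of the hypoxia-inducible factors (HIF) for destruction while oxygen is present. When oxygen falls, the subunits are stabilised as protein, pair with ARNT, and switch on genes for glucose uptake, glycolysis, vessel growth and mitophagy. Much of this control acts on protein, so transcripts of the targets, more than those of Hif1a or Epas1 themselves, are the usual readout of the pathway in tissue.

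The genes lie on chromosomes that the annotation of the mouse build GRCm38 gives as follows. Hif1a is at chr12:73901375-73947530 and Egln3 at chr12:54178981-54203860. Vegfa is at chr17:46016993-46032369 and Epas1 at chr17:86753700-86833410. Adm is at chr7:110627661-110629820, Bnip3 at chr7:138890836-138909519 and Ldha at chr7:46841475-46855627. Slc2a1 is at chr4:119108711-119137983 and Pdk1 at chr2:71873224-71903858. Some exon bases are shared with other genes, and the use of strand in counting was not given in the sources used here, so these reads cannot be assigned with certainty. They were 504 of the 2265 exon bases of Bnip3 (with the antisense gene Gm45507), 330 of 5896 for Hif1a (with antisense Gm15283, and 148 more with Gm49321 on the same strand) and 105 of 3506 for Slc2a1 (with antisense Gm12868).

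Promoter windows from RefSeq (GRCm38.p6, 250 bases before to 50 after a start) were found for 8 of the 9 genes, all but Epas1. They were searched on both strands for the core of the hypoxia response element, the letters to which HIF binds, in its forms ACGTG (which reads CACGT on the other strand) and GCGTG (which reads CACGC there). A core was present in 9 of 11 windows and in at least 1 window of each of the 8 genes. Of all 32851 windows in the table, 43.8% held a core, 19.6% held ACGTG and 32.4% held GCGTG. The letters G and C made up 54.7 to 71.7% of the windows of these genes with a core, and 62.0% and 40.3% of those without. The share over all windows was not matched for this content. The ACGTG nearest upstream of a start, or GCGTG where there was no ACGTG, is shown for each gene in capitals within 25 bases of its promoter, to place the sites to which the HIF pathway could bind in the genes followed below. Each run reads along the gene's strand, and the position is that of the first capital counted from the start.
Slc2a1 (plus strand, chr4:119108699-119108723, position -36): cccgccccggACGTGctccccaggc
Bnip3 (minus strand, chr7:138909599-138909623, position -107): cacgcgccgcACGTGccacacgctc
Adm (plus strand, chr7:110627593-110627617, position -54): caaatctgacCACGCccaccgtccg
Ldha (plus strand, chr7:46845760-46845784, position -34): tgggttcccgCACGTccgctgggct
Hif1a (plus strand, chr12:73907787-73907811, position -70): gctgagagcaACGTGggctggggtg
Egln3 (minus strand, chr12:54204089-54204113, position -229): tgcatctcagACGTGagatccaggt
Vegfa (minus strand, second window, chr17:46025360-46025384, position -211): agtgcgtgccCACGTcagagagcaa
Pdk1 (plus strand, chr2:71873136-71873160, position -78): gcctacatggGCGTGtctttaacca
A match of 5 letters is a description of the sequence and was not tested for binding. The matches shown for Hif1a, Ldha and Vegfa lie before starts inside the gene spans given above, and the window at the outer start of Vegfa held none.

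Sequencing was deep, with 66.7 M to 75.6 M (mega) counted reads for each mouse of the pre-treatment experiment and 48.8 M to 77.2 M for those of the delayed treatment experiment. The summed CPM (counts per M counted reads) of 8 dopaminergic neuron markers was 526 to 823 in control mice, 541 to 861 with MPTP and 538 to 631 with irisin before MPTP in the pre-treatment experiment. With delayed treatment it was 676 to 713 in control mice, 633 to 641 with irisin alone, 463 to 587 with MPTP and 474 to 545 with MPTP then irisin. Aldh1a1 alone was at 280, 480 and 361 CPM in the control mice of the pre-treatment experiment, so it weighs heavily in the sums. Slc6a3 there was at 58.9, 106 and 105 CPM in control mice and 51.3, 65.5 and 52.1 CPM with MPTP. With irisin before MPTP it was at 28.3, 37.2 and 25.7 CPM, while Aldh1a1, Slc18a2, Ddc and En1 overlapped between the 3 groups. For MPTP against control, 5 of the 8 had a log2 fold change above 0 and 3 below in the pre-treatment experiment, and all 8 were below 0 in the delayed treatment experiment, with none past the adjustment. Th, the rate-limiting enzyme of dopamine synthesis, averaged 46.5 CPM in control mice, 39.1 CPM with MPTP and 26.7 CPM with irisin before MPTP in the pre-treatment experiment, and 57.8 CPM in control and 36.2 CPM in MPTP treated mice of the delayed treatment experiment (MPTP against control, edgeR's quasi-likelihood test, adjusted p = 0.939 and 0.188). Markers of the choroid plexus, a tissue next to the midbrain, summed to 1648 CPM in 1 MPTP treated mouse of the pre-treatment experiment against 20.7 to 46.3 CPM in its control and irisin mice, and ranged from 43.1 to 1667 CPM over the mice of the delayed treatment experiment. The labels do not say whether the mice of a group were handled separately beyond being separate samples, so p-values measure the spread between these samples.

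All 9 genes were well measured in every mouse, from 109 to 266 counts for Adm up to 11962 to 19740 counts for Epas1. Levels can be compared between genes only per length, as FPKM, fragments per kilobase of transcript scaled to the mapped total of a library. Among control mice of the pre-treatment experiment the order of mean FPKM was Bnip3 (52.0 ± 2.13, SD, n = 3), Epas1 (32.6 ± 1.29), Ldha (27.1 ± 4.696), Slc2a1 (24.8 ± 2.65), Vegfa (16.9 ± 0.845), Hif1a (16.4 ± 1.64), Pdk1 (4.83 ± 0.0572), Egln3 (3.72 ± 0.232) and Adm (1.39 ± 0.0288). Neighbours whose difference was within these SDs were Ldha and Slc2a1, and Vegfa and Hif1a. In the control mice of the delayed treatment experiment Slc2a1 stood highest at 57.2 ± 6.35 FPKM, followed by Bnip3 (44.2 ± 1.86), Epas1 (39.4 ± 1.93), Ldha (37.6 ± 0.704), Hif1a (14.9 ± 0.838), Vegfa (12.996 ± 0.587), Egln3 (5.30 ± 0.600), Pdk1 (4.20 ± 0.0876) and Adm (1.57 ± 0.0717).

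The 2 sets of control mice thus differed most in Slc2a1, the glucose transporter GLUT1 of brain endothelium and astrocytes. Its mean CPM was 2.32-fold higher in the control mice of the delayed treatment experiment, and this ratio ranked at percentile 96.96 over 21153 genes. Ratios of the other genes ran from 0.773 for Vegfa to 1.43 for Egln3. The tables were made separately, so the ratios are given without a test. Both sets of control mice had ddH2O only, so neither MPTP nor irisin enters these ratios. What differed between the experiments was not tested.

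**Figure D1:**
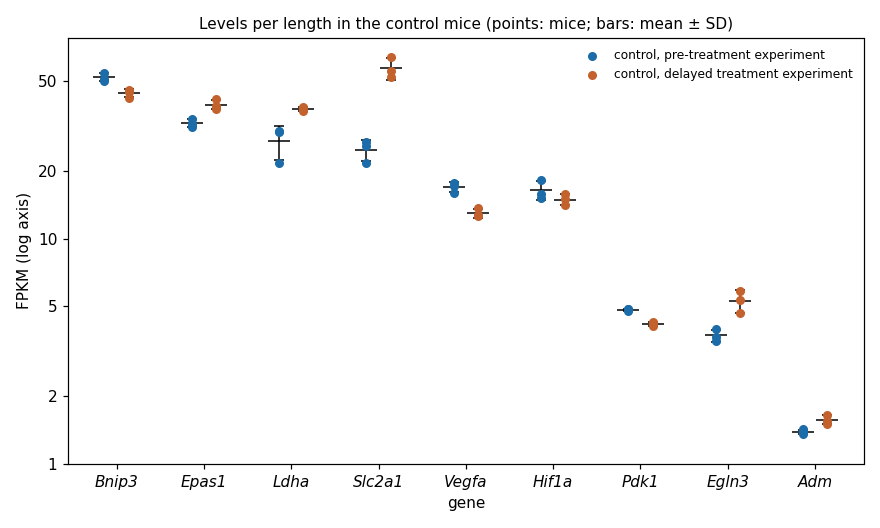
Mean FPKM ± SD (log axis) and the values of the 3 control mice of each experiment for the 9 genes. Bnip3, Epas1, Ldha and Slc2a1 lie above 20 FPKM and Adm lowest, at 1.39 and 1.57 FPKM, and the mice of the 2 experiments are furthest apart in Slc2a1.

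None of the 9 genes passed an adjusted p of 0.05 in any of the 7 comparisons within an experiment (edgeR's quasi-likelihood test, all groups of an experiment in 1 fit, Benjamini-Hochberg over all genes tested). At an unadjusted p below 0.05 there were 1 member (Slc2a1, higher) for MPTP against control in the pre-treatment experiment, 0 for irisin before MPTP against MPTP, and 1 (Slc2a1, higher) for irisin before MPTP against control. In the delayed treatment experiment there were 2 (Adm and Bnip3, higher) for MPTP against control, 1 (Bnip3, higher) for irisin alone against control, 0 for MPTP then irisin against MPTP, and 1 (Adm, higher) for MPTP then irisin against control. DESeq2 and limma on the FPKM values also gave 0 members at an adjusted p of 0.05 in each.

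The background was as sparse. Of 22641 genes tested in the pre-treatment experiment, 0.0221% passed the adjusted threshold for MPTP against control, 0.0707% for irisin before MPTP against MPTP and 0.0707% for irisin before MPTP against control, and 6.03%, 6.22% and 7.12% had an unadjusted p below 0.05. Of 21922 genes in the delayed treatment experiment, 0.132% passed for MPTP against control, 0.109% for irisin alone against control, 0.00456% for MPTP then irisin against MPTP and 0.109% for MPTP then irisin against control. There, 8.33%, 8.97%, 3.90% and 9.31% had an unadjusted p below 0.05. With 9 genes, 1 such gene in a comparison is near this background. The share of all genes whose groups did not overlap was not counted. Where groups are said below to lie apart, that is only a description of the values.

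The data nevertheless bound the changes of these genes closely. The 95% interval of the fold change lay within 1.5-fold in either direction for 8 or 9 of the 9 genes in each of the 7 comparisons, Adm being the exception where there was 1, against 44.0 to 48.7% of all genes tested. Within 1.3-fold lay 6 to 9 of the 9 genes, against 27.9 to 33.7% of all genes. The median log2 fold change of the 9 genes was between -0.06 and 0.04 in the 7 comparisons, beside -0.0023 to 0.0037 over all genes tested. Most of the 9 are more abundant than the typical gene, and counting precision rises with abundance.

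**Figure D2:**
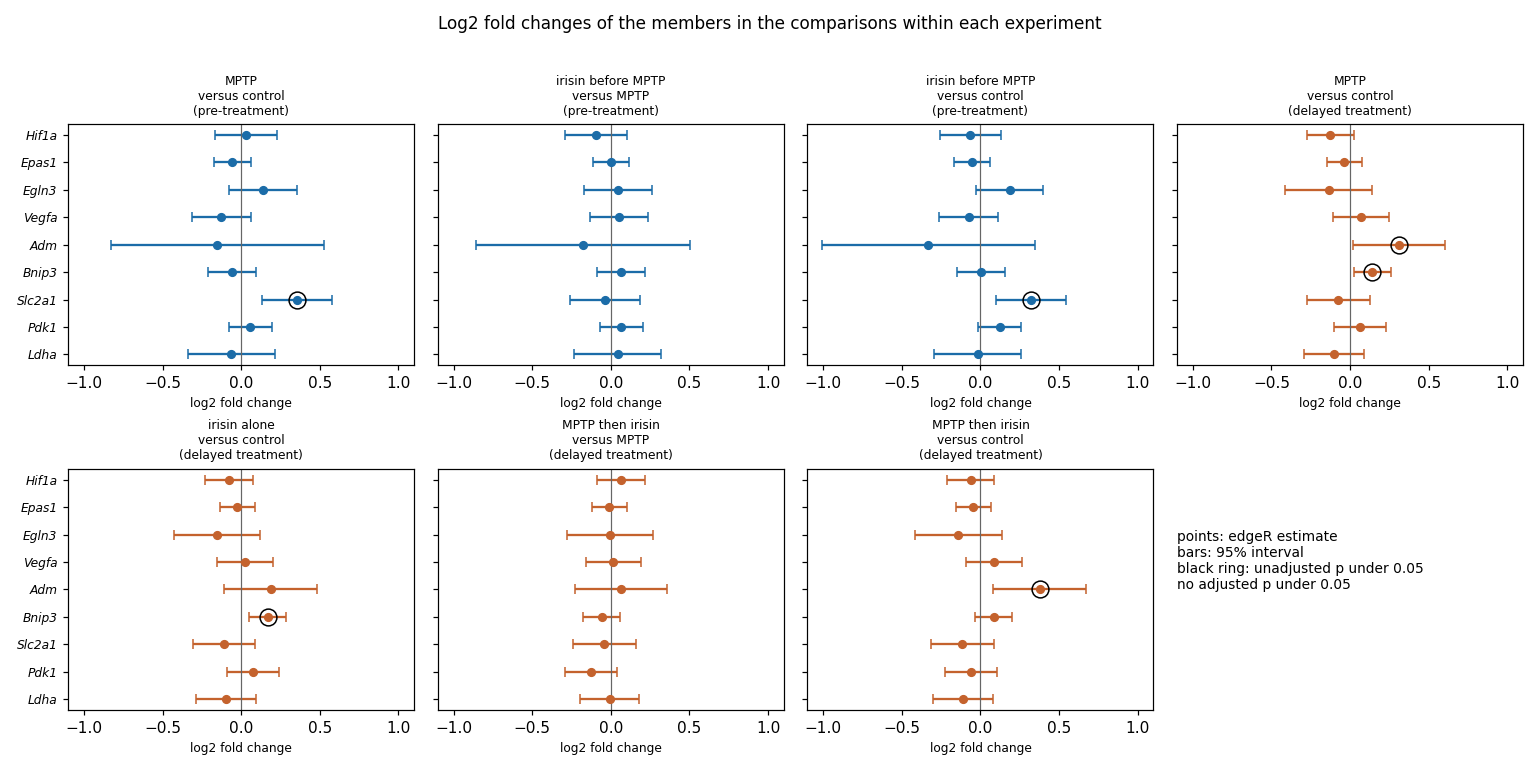
Log2 fold change (points) and 95% interval (bars) of each gene in the 7 comparisons, with a ring where the unadjusted p was below 0.05. Most estimates lie near 0 with short bars. Adm has the longest bars in the pre-treatment experiment, and rings fall on Slc2a1 there and on Adm and Bnip3 in the delayed treatment experiment.

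Hif1a encodes the oxygen-sensitive subunit best known for its part in glycolysis. It was at 101, 125 and 104 CPM in the control mice of the pre-treatment experiment, at 111, 109 and 116 CPM with MPTP and at 109.6, 102 and 103 CPM with irisin before MPTP. The groups overlapped throughout, and the log2 fold change for irisin before MPTP against MPTP was -0.10 (SE 0.09, adjusted p = 0.982, edgeR). Over the delayed treatment experiment Hif1a ran from 86.4 to 105 CPM over all 12 mice, with the lowest mean in MPTP treated mice (91.6 ± 4.87 CPM against 99.98 ± 5.48 CPM in control mice, log2 fold change -0.13, 95% interval -0.28 to 0.02).

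Epas1, the other alpha subunit, is known for its expression in vessels and was the steadiest of the genes. It was at 203, 203 and 211 CPM in control mice, 199, 192 and 202 CPM with MPTP and 204, 199 and 192 CPM with irisin before MPTP. Its 4 group means lay between 243 and 250.4 CPM in the delayed treatment experiment. No log2 fold change of Epas1 in the 7 comparisons was further from 0 than -0.06, and the intervals ran from -0.17 to 0.12.

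Egln3 encodes a prolyl hydroxylase that is itself switched on by HIF, which makes it a sensitive marker of the pathway. It was at 10.5, 11.3 and 11.8 CPM in control mice, 13.3, 11.6 and 12.04 CPM with MPTP, and 13.1, 12.8 and 12.2 CPM with irisin before MPTP. All 3 mice with irisin before MPTP thus lay above all 3 control mice (log2 fold change 0.19, SE 0.09, unadjusted p = 0.0815, adjusted p = 0.743, edgeR). Control mice of the delayed treatment experiment were highest on average (17.8, 14.1 and 16.2 CPM), and the other groups overlapped them at 12.6 to 16.9 CPM.

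Vegfa, the main growth factor of blood vessels, was at 77.1, 85.0 and 84.4 CPM in control mice of the pre-treatment experiment. It was at 71.6, 75.8 and 78.3 CPM with MPTP and 83.6, 80.1 and 70.3 CPM with irisin before MPTP. These groups overlapped (MPTP against control, log2 fold change -0.13, SE 0.08, adjusted p = 0.880, edgeR). Its 12 values in the delayed treatment experiment ran from 57.6 to 72.1 CPM, and its log2 fold changes against control were 0.03 to 0.08.

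Adm encodes adrenomedullin, a peptide that widens vessels and protects the endothelial barrier. The delayed treatment experiment had it at 2.88, 2.80 and 3.08 CPM in control mice and 3.08, 3.20 and 3.69 CPM with irisin alone. With MPTP it was at 3.63, 3.39 and 3.84 CPM, and with MPTP then irisin at 3.75, 3.96 and 3.65 CPM. Every mouse of both MPTP groups was above every control mouse. The log2 fold change against control was 0.31 (SE 0.13, unadjusted p = 0.0399, adjusted p = 0.564) for MPTP and 0.38 (SE 0.13, unadjusted p = 0.0169, adjusted p = 0.447) for MPTP then irisin, by edgeR. These comparisons share the control mice. The first kept an unadjusted p below 0.05 in 8 of 20 alternatives and the second in 18 of 20, all with log2 fold changes above 0.

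In the pre-treatment experiment Adm was at 2.55, 2.68 and 2.48 CPM in control mice, 1.99, 2.59 and 2.36 CPM with MPTP, and 3.15, 1.48 and 1.497 CPM with irisin before MPTP. The first of the irisin mice was the highest of all 9 mice, and the other 2 were the lowest. Its presence decided the value. For irisin before MPTP against MPTP the log2 fold change was -0.18 with it and -0.63 without it (unadjusted p = 0.566 and 0.0135 by edgeR), and against control it was -0.33 and -0.79 (unadjusted p = 0.297 and 0.00444). The smallest adjusted p of the 2 comparisons over all their alternatives was 0.655.

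Bnip3, a mitochondrial outer membrane protein of mitophagy and cell death, was the member with the highest level per length in the pre-treatment experiment. In the delayed treatment experiment it was at 116, 117 and 109 CPM in control mice, 130.5, 119.9 and 134 CPM with irisin alone, 128, 124 and 125 CPM with MPTP, and 119.9, 123 and 119 CPM with MPTP then irisin. All 9 treated mice lay above the 3 control mice, by small amounts. How many of all genes separate in this way was not counted. The log2 fold change against control was 0.17 for irisin alone (SE 0.05, unadjusted p = 0.00921, adjusted p = 0.452), 0.14 for MPTP (SE 0.05, unadjusted p = 0.0231, adjusted p = 0.503) and 0.08 for MPTP then irisin (SE 0.05, unadjusted p = 0.149, adjusted p = 0.680), by edgeR. The 3 comparisons share the control mice.

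In the pre-treatment experiment Bnip3 did not repeat that order. It was at 128, 143 and 129 CPM in control mice, 130.1, 124 and 131 CPM with MPTP and 141, 134 and 127 CPM with irisin before MPTP, and the groups overlapped. In a fit of all 21 mice, the effect of MPTP on Bnip3 was lower in the pre-treatment experiment than in the delayed treatment experiment by 0.21 on the log2 scale (SE 0.08, unadjusted p = 0.0213, adjusted p = 0.803, edgeR). This difference of effects had an adjusted p below 0.05 in 0.103% of 23364 genes and an unadjusted p below 0.05 in 5.68%. For the difference of the effect of irisin in MPTP treated mice the shares were 0.0770% and 5.69%.

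Slc2a1 had the largest log2 fold change of the 9 genes for MPTP against control in the pre-treatment experiment. It was at 85.5, 104 and 105 CPM in control mice, 112, 129 and 135 CPM with MPTP and 125, 119.9 and 122 CPM with irisin before MPTP. Every MPTP treated mouse, with or without irisin, lay above every control mouse. The log2 fold change against control was 0.35 (SE 0.10, 95% interval 0.13 to 0.58, unadjusted p = 0.00602, adjusted p = 0.786) for MPTP and 0.32 (SE 0.10, 0.10 to 0.54, unadjusted p = 0.0104, adjusted p = 0.536) for irisin before MPTP, by edgeR with shared control mice. Between the MPTP groups with and without irisin the log2 fold change was -0.03 (95% interval -0.26 to 0.19). In all 17 alternatives of each comparison against control the unadjusted p stayed below 0.05 and the adjusted p above it, from 0.289 to 0.973 for MPTP and from 0.286 to 0.894 for irisin before MPTP.

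With delayed treatment, Slc2a1 was at 221, 256 and 208 CPM in control mice, 205, 211 and 219.7 CPM with irisin alone, 215, 208 and 227 CPM with MPTP and 183, 226 and 222 CPM with MPTP then irisin. The 4 groups overlapped, each mouse above the highest value of the pre-treatment experiment. The effect of MPTP on Slc2a1 differed between the experiments by 0.42 on the log2 scale (SE 0.14, unadjusted p = 0.00785, adjusted p = 0.711, edgeR, all 21 mice), and the effect of irisin in MPTP treated mice by 0.01 (95% interval -0.28 to 0.31).

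Values of other lists in the mice of the pre-treatment experiment were as follows. Endothelial cells are among those that carry this transporter. The summed CPM of 10 endothelial markers was 231 to 291 in control mice, 233 to 245 with MPTP and 263 to 278 with irisin. Slco1a4 was the largest part, at 78.6, 108 and 80.0 CPM in control mice. With MPTP against control, Slco1a4, Cldn5, Emcn, Pecam1, Cdh5 and Ocln had lower means, and Abcb1a, Ly6c1, Esam and Tie1 higher means. Cldn5 was at 16.2, 15.8 and 18.3 CPM in control mice, 12.2, 13.0 and 11.8 CPM with MPTP and 18.0, 17.8 and 17.6 CPM with irisin before MPTP. The summed CPM of 10 glucocorticoid-responsive genes was 612 to 689, 739 to 807 and 796 to 995, without overlap between control mice and either treated group. Sgk1 made up most of the difference of the mean sum with MPTP, at 215 ± 39.4 CPM in control mice and 308 ± 4.74 CPM with MPTP, but was at 230.2 ± 41.5 CPM with irisin before MPTP. Zbtb16 (6.82 ± 1.59 and 15.6 ± 4.65 CPM), Errfi1 (49.1 ± 6.71 and 65.3 ± 4.44 CPM) and Sult1a1 (7.48 ± 2.53 and 11.3 ± 1.11 CPM) were also higher with MPTP, without overlap. The share of all genes without such overlap was not counted. Mt1 (119 ± 20.6 and 108 ± 4.04 CPM) and Mt2 (87.1 ± 13.7 and 79.7 ± 4.27 CPM) had lower means with MPTP than in control mice. Fkbp5, Tsc22d3, Per1 and Cdkn1a had higher means with MPTP but overlapped between these groups. Control mice of the delayed treatment experiment, with ddH2O only, also had higher means than these control mice in all but Per1 of the list. Fkbp5 was at 59.4 ± 11.7 against 23.8 ± 2.43 CPM, Zbtb16 at 26.9 ± 3.71 against 6.82 ± 1.59 CPM and Cdkn1a at 48.5 ± 13.8 against 10.4 ± 4.43 CPM. Per1 was at 48.3 ± 4.09 against 49.6 ± 6.13 CPM, and what differed between the experiments was not tested. The genes most like Slc2a1 over mice were Cdkn1a, a cell cycle inhibitor on that list (r = 0.86 over 9 mice and 0.82 over 12 mice of the delayed treatment experiment), and Sdc4, a cell surface proteoglycan (0.81 and 0.87). These correlations are descriptions, chosen as the highest of 21152 genes. The part of any of these genes or cells in the level of Slc2a1 was not tested, and fewer cells of a type cannot be told apart from less RNA per cell in tissue samples.

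Pdk1 and Ldha send pyruvate away from the mitochondria, Pdk1 by switching off pyruvate dehydrogenase and Ldha by making lactate. Pdk1 was at 42.5, 42.9 and 42.0 CPM in control mice, 45.3, 43.5 and 43.6 CPM with MPTP and 44.9, 47.4 and 46.5 CPM with irisin before MPTP. Each treated mouse was above each control mouse, by little (irisin before MPTP against control, log2 fold change 0.12, SE 0.06, unadjusted p = 0.0711, adjusted p = 0.739, edgeR). With delayed treatment it was at 36.4, 37.8 and 37.4 CPM in control mice, 40.2, 38.4 and 39.1 CPM with irisin alone, 37.7, 39.9 and 38.9 CPM with MPTP and 39.3, 35.1 and 32.4 CPM with MPTP then irisin. The effect of irisin in MPTP treated mice differed between the experiments by 0.20 (SE 0.09, unadjusted p = 0.0415, adjusted p = 0.863, edgeR), and 12 of 28 alternatives kept the unadjusted p below 0.05.

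Ldha was at 111, 83.0 and 109 CPM in control mice of the pre-treatment experiment, 98.6, 98.5 and 93.5 CPM with MPTP and 87.2, 106 and 106 CPM with irisin before MPTP. In the delayed treatment experiment it was at 145, 139 and 142 CPM in control mice, 128, 131 and 138 CPM with irisin alone, 129.6, 128 and 138 CPM with MPTP and 117, 153 and 124 CPM with MPTP then irisin. Control mice of that experiment lay above all mice of the irisin alone and MPTP groups, with log2 fold changes of -0.10 in both (adjusted p = 0.771 and 0.808, edgeR). Of the 36 pairs of members, Hif1a and Ldha had the most negative mean correlation (r = -0.89 over 9 mice and -0.38 over 12), and Egln3 and Slc2a1 the most positive (0.61 and 0.35).

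**Figure D3:**
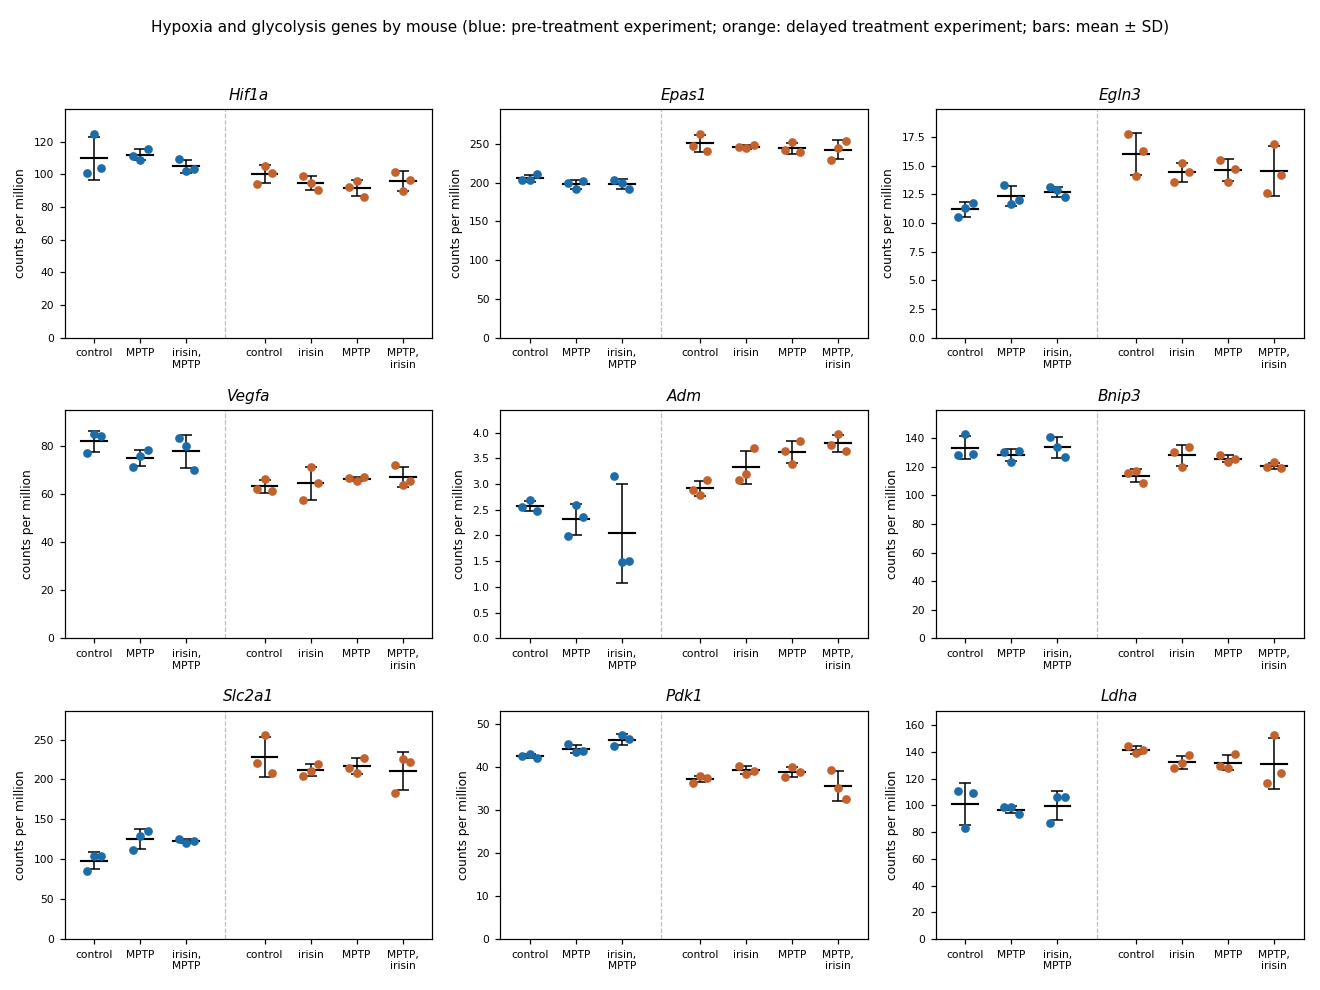
CPM of each gene in every mouse (points) with the mean ± SD of each group (black), pre-treatment experiment in blue and delayed treatment experiment in orange. Slc2a1 lies at 85.5 to 105 CPM in control mice of the pre-treatment experiment and at 112 to 135 CPM in the MPTP groups there. In Adm 1 mouse with irisin before MPTP stands apart from the other 2.

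For the other genes whose pattern over mice was most like each member, the 2 highest mean correlations over both experiments were taken. They were Nebl and Exoc5 for Hif1a (mean r = 0.86 and 0.79), Slc35a4 and Rpl35a for Epas1 (0.78 and 0.78), and Zbtb11os1 and Flot2 for Egln3 (0.80 and 0.80). They were Gm11889 and Nexmif for Vegfa (0.76 and 0.73), Gm42500 and Phlpp1 for Adm (0.81 and 0.80), and Adss and Fbxw11 for Bnip3 (0.81 and 0.79). For Pdk1 they were Hspa12b and Cers4 (0.79 and 0.75), and for Ldha Ano2 and Aup1 (0.85 and 0.85). None of these 18 genes, Slc2a1's included, was another member.

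The rest of the pathway was read from lists of other genes, 75 of them tested, namely 7 of HIF subunits and oxygen sensing, 26 of other HIF targets, 26 of glycolysis and lactate and 16 of vessel growth signals. Of these, 1 gene passed the adjusted threshold, Hif3a, and it did so in both comparisons of irisin before MPTP. Hif3a encodes the remaining alpha subunit, forms of which restrain the other two, and it is also known as a target of glucocorticoids. It was at 6.28, 6.67 and 8.11 CPM in control mice, 12.6, 14.7 and 13.1 CPM with MPTP and 36.4, 28.3 and 31.3 CPM with irisin before MPTP. The 3 groups did not overlap. Hif3a rose with irisin before MPTP by 1.25 on the log2 scale against MPTP (SE 0.14, adjusted p = 0.0179) and by 2.19 against control (SE 0.14, adjusted p = 0.00125), by edgeR. For MPTP against control the log2 fold change was 0.94 (SE 0.14, adjusted p = 0.167, edgeR).

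Among edgeR fits without 1 mouse, the call of Hif3a against MPTP was lost when replicate 1 or 3 of the MPTP group (adjusted p = 0.0681 and 0.101) or replicate 1 or 3 of the irisin group (0.0637 and 0.0736) was left out, with log2 fold changes of 1.15 to 1.33 over all such fits. The call against control was kept in all 17 alternatives (adjusted p up to 0.0331). DESeq2 also called MPTP against control (adjusted p = 4.03e-06). With delayed treatment, Hif3a ran from 16.7 to 27.1 CPM in 11 of 12 mice, and was 3.51 CPM in 1 mouse with MPTP then irisin. The control mice there, with ddH2O only, were at 17.4 to 27.1 CPM, against 6.28 to 8.11 CPM in those of the pre-treatment experiment. What differed between these control mice was not tested. The effect of irisin in MPTP treated mice differed between the experiments by 1.77 (SE 0.52, unadjusted p = 0.00359, adjusted p = 0.537, edgeR), and by 1.31 (adjusted p = 0.0540, edgeR) without the mouse at 3.51 CPM.

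Of the 26 other HIF targets, 2 were higher and 3 lower at an unadjusted p below 0.05 for irisin before MPTP against MPTP. Such a p was found in 6.22% of all genes tested, in either direction. The median log2 fold change of the targets was -0.07 beside 0.0031 over all genes. P4ha1, a prolyl hydroxylase of collagen, was at 44.1, 40.7 and 45.7 CPM in control mice, 49.7, 49.5 and 60.2 CPM with MPTP and 32.2, 35.6 and 31.0 CPM with irisin before MPTP. Its groups did not overlap, and the log2 fold change for irisin before MPTP against MPTP was -0.69 (SE 0.10, adjusted p = 0.0695, edgeR). DESeq2 called it (adjusted p = 6.32e-06), and the adjusted p of the other alternatives ran up to 0.294. Angptl4, a lipase inhibitor, went the other way, at 2.13, 1.93 and 2.62 CPM with MPTP and 4.36, 4.56 and 3.64 CPM with irisin before MPTP (log2 fold change 0.91, SE 0.25, adjusted p = 0.537, edgeR). P4ha1 and Angptl4 were named as the targets with the smallest p, and neither passed the adjustment by edgeR.

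For MPTP against control in the pre-treatment experiment, 5 of the 26 other targets had an unadjusted p below 0.05, all higher. Such a p was found in 6.03% of all genes tested, in either direction. The median log2 fold change of the targets was 0.08 beside -0.0018 over all genes, and no target passed the adjustment. P4ha2, a relative of P4ha1, was at 16.9, 14.2 and 19.1 CPM in control mice and 21.3, 23.2 and 24.9 CPM with MPTP (log2 fold change 0.47, SE 0.12, adjusted p = 0.741, edgeR). Among glycolysis genes only Pdk4, a kinase of the same family as Pdk1 that glucocorticoids induce, had an unadjusted p below 0.05 there (13.03 ± 1.28 against 20.6 ± 2.42 CPM, log2 fold change 0.66, adjusted p = 0.689, edgeR). For irisin before MPTP against control the counts among the 26 targets were 2 higher and 2 lower, beside 7.12% of all genes in either direction.

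**Figure D4:**
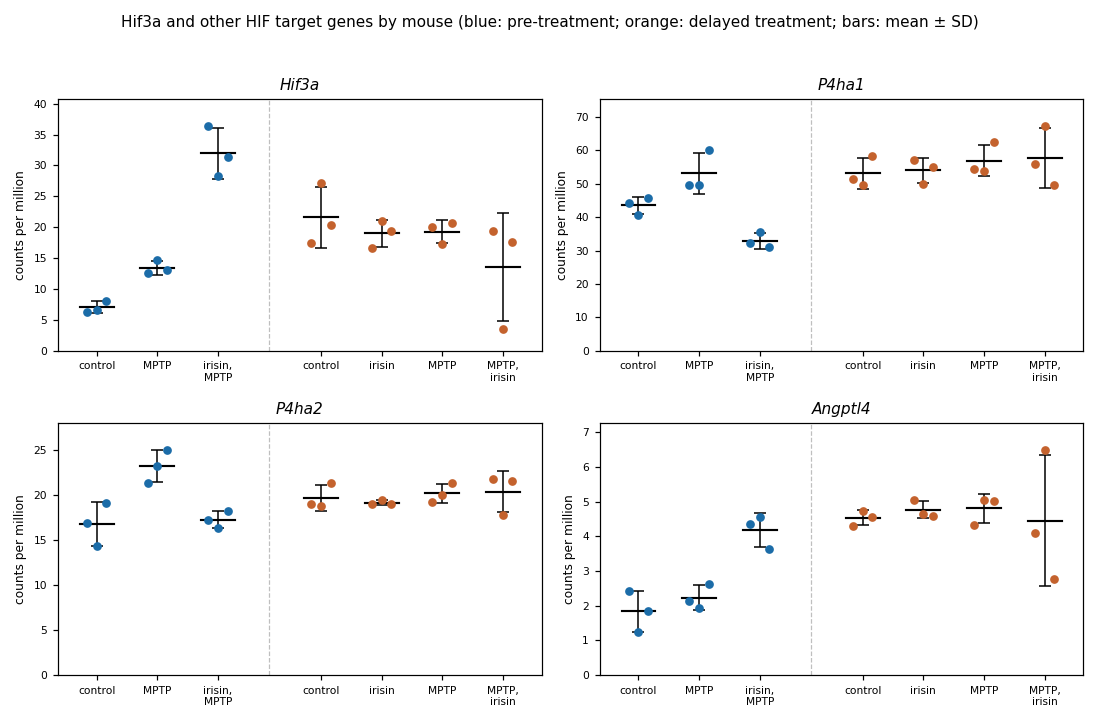
CPM of Hif3a, P4ha1, P4ha2 and Angptl4 in every mouse (points) with the mean ± SD of each group (black). In the pre-treatment experiment Hif3a climbs from 6.28 to 8.11 CPM in control mice to 28.3 to 36.4 CPM with irisin before MPTP, while P4ha1 is lowest with irisin before MPTP, and the delayed treatment groups overlap.

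In the delayed treatment experiment no glycolysis gene passed the adjustment. Of 26, there were 6 lower and 1 higher at an unadjusted p below 0.05 with MPTP. There were 7 lower and 0 higher with irisin alone, and 5 lower and 0 higher with MPTP then irisin. Such a p was found in 8.33%, 8.97% and 9.31% of all genes tested, in either direction. The medians of the list were -0.09, -0.08 and -0.07, beside -0.0013, -0.0023 and -0.0007 over all genes, and these comparisons share the control mice. Hk1, the main brain hexokinase, was at 404, 399 and 407 CPM in control mice and 266, 292 and 281 CPM with irisin alone (log2 fold change -0.53, SE 0.10, adjusted p = 0.169, edgeR). With MPTP it was at 271, 381 and 282 CPM, and with MPTP then irisin at 388, 384 and 398 CPM. Gpi1, the next enzyme of the path, was at 731 ± 28.7 CPM in control mice and 657 ± 12.1 CPM with MPTP (log2 fold change -0.15, adjusted p = 0.338, edgeR). In the same experiment choroid plexus markers varied widely between mice, as given above, and their part in these values was not tested.

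Among the 16 vessel growth genes, those with the smallest p were Pgf, a relative of Vegfa, at 11.2 ± 0.426 CPM in control mice and 7.37 ± 0.886 CPM with irisin alone in the delayed treatment experiment (log2 fold change -0.61, adjusted p = 0.326, edgeR), and Vegfc, which drives lymph vessels, at 2.17 ± 0.242 CPM with MPTP and 1.33 ± 0.180 CPM with irisin before MPTP (log2 fold change -0.70, adjusted p = 0.558). Among HIF subunits, Arnt2, the brain partner of the alpha subunits, was at 236 ± 4.26 CPM in control mice and 265 ± 7.18 CPM with MPTP in the delayed treatment experiment (log2 fold change 0.17, adjusted p = 0.347, edgeR).

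Other lists differed in the mice in which Hif3a rose. Immediate early genes, which report recent neuronal activity, summed to 111 to 129 CPM with irisin before MPTP against 203 to 241 CPM with MPTP. Of 12, 3 (Atf3, Jun and Fos) fell at an adjusted p of 0.05 by edgeR, beside 0.0707% of all genes called in either direction. Red blood cell markers summed to 231 to 455 CPM against 549 to 810 CPM. Of 10 glucocorticoid-responsive genes, 5 were higher and 3 lower at an unadjusted p below 0.05, beside 6.22% of all genes in either direction. None passed the adjustment, the smallest adjusted p being 0.0695 for Mt2 by edgeR. Fkbp5, Zbtb16, Sult1a1, Mt1 and Mt2 were higher, and Sgk1, Per1 and Errfi1 lower, without overlap with the MPTP group. The share of all genes without overlap between these groups was not counted. The part of any of these lists in the level of Hif3a or of the 9 genes was not tested.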

How the data were processed

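RNA-seq was done on midbrain of 21 mice in 7 groups of 3, and groups were taken from the sample labels. The study's methods describe the tissue taken for RNA-seq as nigral, dissected by hand. The authors deposited whole-number read counts for each gene (featureCounts, per the study's methods) and, beside them, FPKM values that they had scaled to gene length and library size. HISAT, StringTie and edgeR are named in the submitters' processing notes, versions not given in the sources used here. The notes name the build mm9, but 92.0% and 94.3% of genes in the 2 tables had the start and end of the GRCm38 annotation (GENCODE M21), which was used for positions.

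Counts were analysed with edgeR 4.0.16 in R 4.3.3. Within each experiment genes were kept by filterByExpr (count minimum 10, total minimum 15), scaled by TMM and tested by the quasi-likelihood test with all groups in 1 fit, and p-values were adjusted by Benjamini-Hochberg over all genes. The effects of the experiments were compared in a fit of all 21 mice. Standard errors are the log2 fold change divided by the root of F. The log2 CPM values used for correlations and for the ratios of control mice have a prior count of 2. CPM values use TMM scaling. Scripts were tested on simulated data. Counting gave 66.7 M to 75.6 M reads per mouse (median 69.8 M) and 48.8 M to 77.2 M (median 55.4 M). Among the 9 genes Adm had the fewest counts, 109 to 266 per mouse. A two-sided exact permutation test of 3 mice against 3 cannot go below p = 0.1, so none was used.

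Alternatives were median ratio scaling, no filter, a mean FPKM of at least 1, DESeq2 1.42.0, limma 3.58.1 on log2(FPKM + 1) and log2(FPKM + 0.1), the replicate number as a block, only the groups compared, and leaving out each mouse. The 9 genes and all lists were chosen with earlier results of these data known, so their counts are descriptions. Named are the 9 genes, then from each list and comparison up to 4 genes past the adjusted threshold, or else up to 2 with the smallest unadjusted p below 0.05, and the 2 genes most like each member. Promoter windows came from RefSeq, found for 8 of 9 genes. Aldoa had 2 rows in each table, of which that with more counts was used.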

Additional observations from a re-analysis of the deposited data

Results flagged for a closer look

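The effect of MPTP, or of irisin in MPTP treated mice, was compared between the experiments in 1 edgeR fit of all 21 mice. Listed below are those of the 9 genes with an unadjusted p below 0.05 for that difference, and the pathway genes with the smallest p. Of the 75 other pathway genes, 6 were higher and 2 lower at an unadjusted p below 0.05 for the effect of MPTP. For the effect of irisin 2 were higher and 5 lower. Such a p was found in 5.68% and 5.69% of all genes, in either direction. None of the 9 or 75 genes passed the adjustment over all genes in this fit. The toxin course was followed by 5 more days only in the delayed treatment experiment, and irisin came before or after MPTP, so experiment, timing and order cannot be told apart.

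For the effect of MPTP, Bnip3 differed by -0.21 on the log2 scale (pre-treatment minus delayed, SE 0.08, unadjusted p = 0.0213, adjusted p = 0.803, edgeR) and Slc2a1 by 0.42 (SE 0.14, unadjusted p = 0.00785, adjusted p = 0.711). Mxi1, a MYC antagonist and HIF target, differed by 0.81 (SE 0.22, unadjusted p = 0.00183, adjusted p = 0.416). It was at 44.5, 58.0 and 47.8 CPM in control and 80.9, 53.6 and 62.3 CPM in MPTP treated mice of the pre-treatment experiment, against 81.6, 91.5 and 73.7 CPM and 60.5, 59.8 and 62.6 CPM in the delayed treatment experiment, where the groups did not overlap.

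For the effect of irisin in MPTP treated mice, Pdk1 differed by 0.20 (SE 0.09, unadjusted p = 0.0415, adjusted p = 0.863, edgeR). Hif3a differed by 1.77 (SE 0.52, unadjusted p = 0.00359, adjusted p = 0.537) and by 1.31 to 2.12 when 1 mouse was left out. P4ha1 differed by -0.70 (SE 0.16, unadjusted p = 0.000342, adjusted p = 0.195), and DESeq2 gave an adjusted p of 0.0138. In the delayed treatment experiment P4ha1 was at 54.5, 53.9 and 62.3 CPM with MPTP and 55.9, 67.3 and 49.7 CPM with MPTP then irisin. Groups held 3 mice, too few to test whether a single mouse stood apart.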

How the results depend on the processing

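None of the 9 genes passed an adjusted p of 0.05 in any of the 9 comparisons, the 2 differences between experiments included, under any alternative. The smallest adjusted p was 0.266 (Bnip3, irisin alone against control, DESeq2). Of 1683 values of the 9 genes under the alternatives, 50 changed sign against the value reported, 48 of them on leaving out 1 mouse. For irisin before MPTP against MPTP, Epas1 was 0.0030 on the log2 scale by edgeR, -0.00126 by limma on log2(FPKM + 1) and -0.00130 on log2(FPKM + 0.1), and -0.0223 to 0.0244 on leaving out 1 mouse. Leaving out 1 mouse gave -0.632 to 0.00622 for Adm and -0.112 to 0.0255 for Slc2a1 in that comparison. It gave -0.0512 to 0.0136 for Epas1 and -0.0535 to 0.102 for Vegfa with irisin alone against control, -0.0392 to 0.0292 for Epas1 with MPTP then irisin against MPTP, and -0.0781 to 0.0754 for the difference of the irisin effect on Slc2a1 between experiments. The cause was not tested.

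Counts over all genes depended more on the tool. In the order of the comparisons of the report and then the 2 differences, edgeR called 5, 16, 16, 29, 24, 1, 24, 24 and 18 genes and DESeq2 called 91, 168, 191, 179, 140, 32, 148, 80 and 72. Numbers of the replicates did not pair the mice, since deviations of same-numbered mice correlated at -0.12 to 0.22 and -0.11 to 0.05. With the replicate number as a block, 2, 8, 2, 17, 14, 1, 13, 12 and 11 genes were called, 0 of the 9 genes among them, and Hif3a had an adjusted p of 0.139 for irisin before MPTP against MPTP and 0.0331 against control (edgeR). With only the groups compared, 10, 21, 12, 10, 14, 9 and 10 genes were called within the experiments. For irisin before MPTP against control, keeping all genes with a count gave 9, and limma gave 5 on log2(FPKM + 1) and 6 on log2(FPKM + 0.1). On log2(FPKM + 1) limma gave 16 for MPTP and 15 for irisin alone against control in the delayed treatment experiment. For MPTP then irisin against MPTP, keeping all genes with a count gave 2. For the difference of the MPTP effect, a mean FPKM of at least 1 gave 16 and limma gave 8 and 15 on the 2 scales. Leaving out 1 mouse gave, in the same order, 4 to 17, 10 to 26, 5 to 20, 16 to 35, 16 to 29, 1 to 7, 15 to 27, 13 to 33 and 11 to 22.

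Adm had the fewest counts of the 9 genes, 109 to 266 per mouse. With 3 mice per group, small changes of the other genes were bounded by their intervals rather than shown absent.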
